A study of Mus musculus with 6 samples.

Results

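The genes described here are 30 genes of cholesterol and fatty acid synthesis, measured in cultures of enteric glial cells (EGCs) with and without lipopolysaccharide (LPS), a component of the outer membrane of Gram-negative bacteria. They were chosen by gene symbol and not by a rule on measured values, although earlier results of these data were known. Each symbol matched 1 row of the count files, 30 of 46603 gene identifiers in all. They comprise 18 enzymes of the sterol pathway, 6 regulators and sterol carriers, and 6 enzymes of fatty acid synthesis.

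Poly(A) RNA was sequenced from 6 libraries of EGCs derived from neurospheres, clusters of neural progenitors, raised from entire intestines of embryonic day 14.5 mice of the C57BL/6J strain. After dissociation the cells grew to confluence on coated plates in medium with fetal bovine serum, and no sorting step or genetic alteration was described. The 3 control libraries carried the treatment label NIL, and the 3 LPS libraries came from cells given 100 ng/ml LPS for 12 h. The labels number the libraries 1 to 3 in each group but do not say whether they came from separate cultures or animals, so p-values measure the spread between these libraries, which may be technical.

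Cholesterol is built from acetyl-CoA through mevalonate, isoprenoid units, squalene and lanosterol, and the enzymes of this chain are switched on together by the transcription factor SREBP2. SREBP1 acts in the same way on fatty acid synthesis. When membranes hold enough sterol, the escort protein SCAP is held in the endoplasmic reticulum by the INSIG proteins and the SREBPs stay inactive; when sterol falls, SCAP carries them to the Golgi, where proteases release the active factor. In the nervous system, glia are a major source of cholesterol and lipid for membranes.

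Total counts ranged from 18775316 to 23664312 per library. All 30 genes passed the filter on low counts, and their smallest count in any library was 268. The libraries numbered 3 stood apart in both groups. All 12 macrophage markers examined were highest in the library numbered 3, in control and in LPS, and their summed level in CPM (counts scaled to library size) was 4218, 5477 and 12940 across control replicates 1 to 3. Across LPS replicates 1 to 3 the sum was 4096, 5314 and 20360 CPM. Lyz2, the most abundant of them, reached 7978 CPM in control replicate 3 and 11480 CPM in LPS replicate 3. All 6 neuronal markers were lowest there, with a summed level of 243.9 to 258.9 CPM against 380.6 to 412.4 CPM in the other libraries. Of the 6 glial markers examined, Sox10 lay between 73.8 and 100.7 CPM and Gfap between 2.23 and 7.22 CPM. S100b was called lower in LPS, with 24.7, 20.54 and 21.4 CPM in control and 4.94, 3.46 and 9.37 CPM in LPS (log2 fold change -1.91 ± 0.37, adjusted p = 0.0238). Without both libraries numbered 3, Sox10, Erbb3 and Foxd3 were called lower as well. Fibroblast and smooth muscle transcripts were abundant as well, with Col1a1 between 5445 and 6269 CPM in all libraries and Acta2 between 1039 and 1243 CPM in control and between 182.4 and 365.7 CPM in LPS. Of 7 fibroblast markers, 2 were called higher in LPS, Dcn with a log2 fold change of 0.90 ± 0.13 (adjusted p = 0.0118) and Pdgfra with 0.50 ± 0.07 (adjusted p = 0.0114), and Lum had -0.73 ± 0.22 (adjusted p = 0.0775; 0.00581 with the replicate number as a block, where it was called lower). Without both libraries numbered 3, Col3a1, Lum and Pdgfrb were called lower and Dcn and Pdgfra higher. In such bulk RNA, fewer cells of a type and less RNA per cell cannot be told apart. The part of cell composition in the results below was not tested, and the counts of calls among the 30 genes and among 4 lists of other pathway genes are therefore also given without both libraries numbered 3.

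First, the level of each gene at rest was examined. Levels are compared between genes as CPM per kilobase of annotated exon, with the mean ± SD over the 3 control libraries. Scd2, a stearoyl-CoA desaturase that makes monounsaturated fatty acids, was the highest of the 30 genes with 200.4 ± 53.9 CPM per kb (SD, n = 3). It was followed by Acly, which makes the cytosolic acetyl-CoA that feeds both pathways, with 65.4 ± 1.21 CPM per kb. Scd1, the other desaturase, had 56.0 ± 15.9 CPM per kb, and its range overlapped that of Acly and that of Hmgcs1. The highest sterol enzyme was Hmgcs1, which makes HMG-CoA at the entry to the mevalonate pathway, with 47.5 ± 1.67 CPM per kb, close to the SREBP retention factor Insig1 with 45.2 ± 1.30 CPM per kb.

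The enzymes of demethylation after lanosterol, Cyp51 with 36.9 ± 3.31 and Msmo1 with 32.3 ± 1.60 CPM per kb, and the squalene epoxidase Sqle with 27.2 ± 3.13 CPM per kb formed the next tier with Srebf2, the gene of SREBP2, at 29.2 ± 2.49 CPM per kb. Ranges of Msmo1 and Srebf2, and of Srebf2 and Sqle, overlapped. At the other end lay the prenyl-diphosphate enzymes Fdps with 5.70 ± 0.479 and Idi1 with 5.13 ± 0.767 CPM per kb, the sterol reductase Tm7sf2 with 3.66 ± 0.317 CPM per kb and the acetyl-CoA carboxylase Acaca with 2.49 ± 0.0365 CPM per kb. Of the 29 neighbouring pairs in the order of levels, 17 overlapped between libraries, so the order is firm in broad tiers and not from gene to gene. Exon length is the union over all annotated transcripts, which lowers the level per kb of genes with many long transcripts such as Acaca and Lss.

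**Figure D1:**
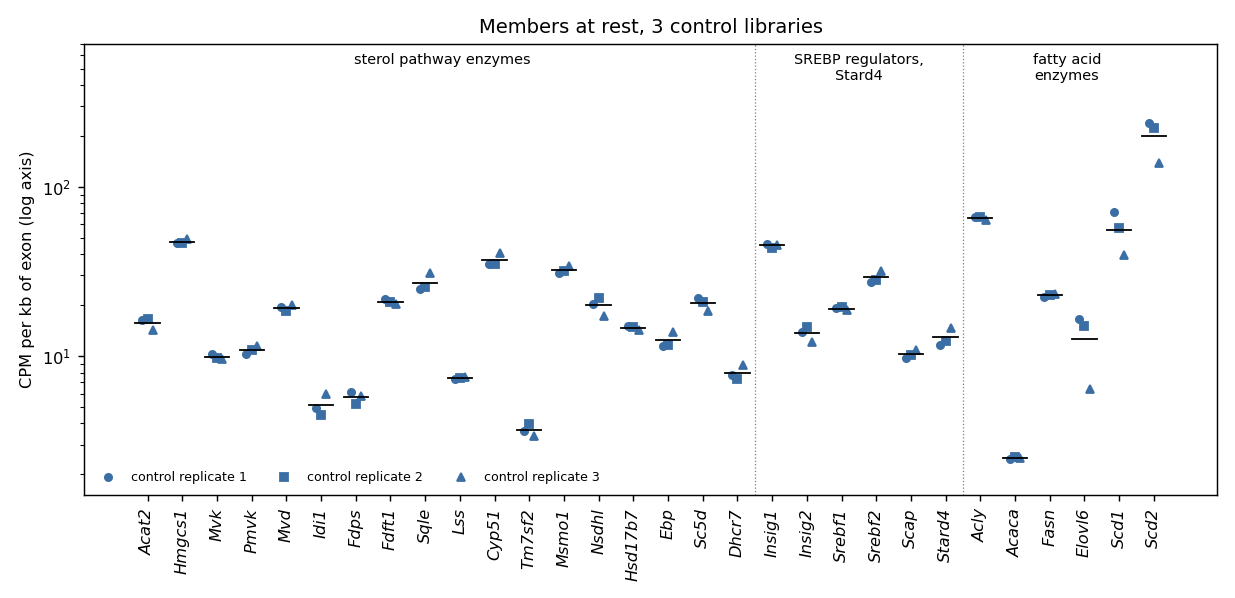
Level of each gene in the 3 control libraries, as CPM per kb of exon on a log axis; marker shapes are replicates and black lines are means. Scd2 lies at the top with 200.4 CPM per kb and Acaca at the bottom with 2.49 CPM per kb, and control replicate 3 lies below the other controls for Scd1, Scd2 and Elovl6.

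Promoter sequence was examined as a feature that the choice of genes did not use. RefSeq promoter windows, 250 bases before to 50 bases after an annotated start in build GRCm38.p6, were found for 24 of the 30 genes (32 windows). Fdps, Fdft1, Sqle, Stard4, Scd1 and Scd2 had no entry. The letters CCAAT, the core bound by NF-Y, a partner of the SREBPs, occurred on either strand in 20 of the 24 genes (83.3%), against 42.5% of 10829 tested genes and 41.1% of all genes with a window. By window the share was 65.6% of the 32, against 37.4% of all windows of this length. On the strand of the gene alone CCAAT occurred in 11 of 24 genes (45.8%), against 24.6% of the tested genes. GGGCGG, an Sp1 core, also occurred in 20 of 24 genes (83.3%), against 67.8% of the tested genes, and in 75% of the 32 windows, against 35.7% of all windows. The E-box CACGTG occurred in 5 of 24 genes (20.8%), against 11.4% of tested genes, and in 18.8% of windows, against 7.15% of all. The sterol regulatory form TCACNCCAC occurred in 1 of 24 (4.17%), Hmgcs1, against 1.48% of tested genes, and in 3.12% of windows, against 1.24% of all. These matches are letters in a window and not measured binding, and none of the 4 motifs contains another.

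The windows of Hmgcs1 and of 4 enzymes whose mRNA rose after LPS (below) are shown 5′ to 3′ on the strand of the gene. Capitals mark CCAAT or its reverse complement ATTGG and, in Hmgcs1, the TCACNCCAC match. Hmgcs1 held 4 CCAAT cores, Mvd 2, Lss 1 and Hsd17b7 3, whereas Acat2 held none. The nearest core upstream of the start began 45 bases before it in Hmgcs1, 27 in Mvd, 62 in Lss and 12 in Hsd17b7.
Hmgcs1 (chr13:119690101-119690400, plus strand): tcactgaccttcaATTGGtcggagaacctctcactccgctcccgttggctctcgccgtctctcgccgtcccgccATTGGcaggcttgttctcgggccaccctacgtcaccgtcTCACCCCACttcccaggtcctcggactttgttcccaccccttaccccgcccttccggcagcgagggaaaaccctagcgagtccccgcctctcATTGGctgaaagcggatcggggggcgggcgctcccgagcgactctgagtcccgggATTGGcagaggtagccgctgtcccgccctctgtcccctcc
Mvd (chr8:122443373-122443672, minus strand): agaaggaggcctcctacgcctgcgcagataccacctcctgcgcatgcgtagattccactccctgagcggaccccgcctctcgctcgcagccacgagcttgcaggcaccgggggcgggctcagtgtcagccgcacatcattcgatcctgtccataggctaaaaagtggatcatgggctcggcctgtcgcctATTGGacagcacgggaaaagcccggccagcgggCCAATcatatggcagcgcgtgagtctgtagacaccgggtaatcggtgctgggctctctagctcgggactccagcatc
Lss (chr10:76531355-76531654, plus strand): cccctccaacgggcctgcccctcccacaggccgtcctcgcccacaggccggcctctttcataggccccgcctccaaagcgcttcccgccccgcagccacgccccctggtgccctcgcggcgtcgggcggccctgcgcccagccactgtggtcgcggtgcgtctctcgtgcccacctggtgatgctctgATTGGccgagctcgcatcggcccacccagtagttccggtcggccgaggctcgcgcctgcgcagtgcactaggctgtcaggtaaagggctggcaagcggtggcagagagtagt
Hsd17b7 (chr1:169969156-169969455, minus strand): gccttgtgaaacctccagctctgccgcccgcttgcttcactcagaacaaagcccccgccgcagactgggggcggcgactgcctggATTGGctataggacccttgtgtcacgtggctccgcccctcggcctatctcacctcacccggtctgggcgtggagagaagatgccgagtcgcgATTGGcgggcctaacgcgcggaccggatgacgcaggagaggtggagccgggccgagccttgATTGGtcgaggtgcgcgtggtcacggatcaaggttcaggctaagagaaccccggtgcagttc
Acat2 (chr17:12960676-12960975, minus strand): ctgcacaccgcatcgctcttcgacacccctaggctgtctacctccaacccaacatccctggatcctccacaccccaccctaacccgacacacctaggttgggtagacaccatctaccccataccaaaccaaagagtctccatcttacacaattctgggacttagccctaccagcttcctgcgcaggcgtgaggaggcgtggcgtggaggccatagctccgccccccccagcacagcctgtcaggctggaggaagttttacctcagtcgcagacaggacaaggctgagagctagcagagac

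Next, LPS was compared with control to ask whether mRNA of the lipid synthesis genes changed in these cultures. Bulk RNA does not tell which cells carry a change. Of the 30 genes, 5 rose and none fell, and all 5 were enzymes of the sterol pathway: Lss, Fdft1, Hsd17b7, Mvd and Acat2. These 5 are 16.7% of the 30 genes, beside 9.09% of all 15226 tested genes called higher and 6.71% called lower at an adjusted p under 0.05 (edgeR quasi-likelihood test). At an unadjusted p under 0.05, 9 of the 30 were higher and 0 lower, beside 16.1% and 16% of all tested genes. DESeq2 called 7 higher and 0 lower, beside 13.7% and 11%, and limma-voom 4 higher and 0 lower, beside 8.21% and 6.05%. With library size alone as scaling, 3 of the 30 were called higher and 1 lower, beside 6.48% and 13.5% (986 higher and 2054 lower over all tested genes). The increases were small, between 1.32-fold and 1.48-fold, whereas genes called higher had a median log2 fold change of 1.17.

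All 3 LPS libraries lay above all 3 control libraries for 11 of the 30 genes (36.7%), beside 19.3% of all tested genes. They lay below for 1 gene, Fasn (3.33%), beside 19.4% of all tested genes. Within same-numbered pairs, 18 genes were higher in LPS in every pair, 60.0% where 31% of all tested genes were. Lower in every pair were 2 genes, where 34.6% of all tested genes were. The data do not tell pair 1 from pair 2. As a median, the log2 fold change was 0.16 over the 30 genes, 0.30 over the sterol enzymes, 0.15 over the regulators and 0.00 over the fatty acid enzymes, beside -0.02 over all tested genes. With upper-quartile factors or library size alone as scaling, the median of all genes moved to -0.12 and -0.18, and the median of the 30 genes to 0.05 and 0.00, since a change of scaling shifts all genes together.

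**Figure D2:**
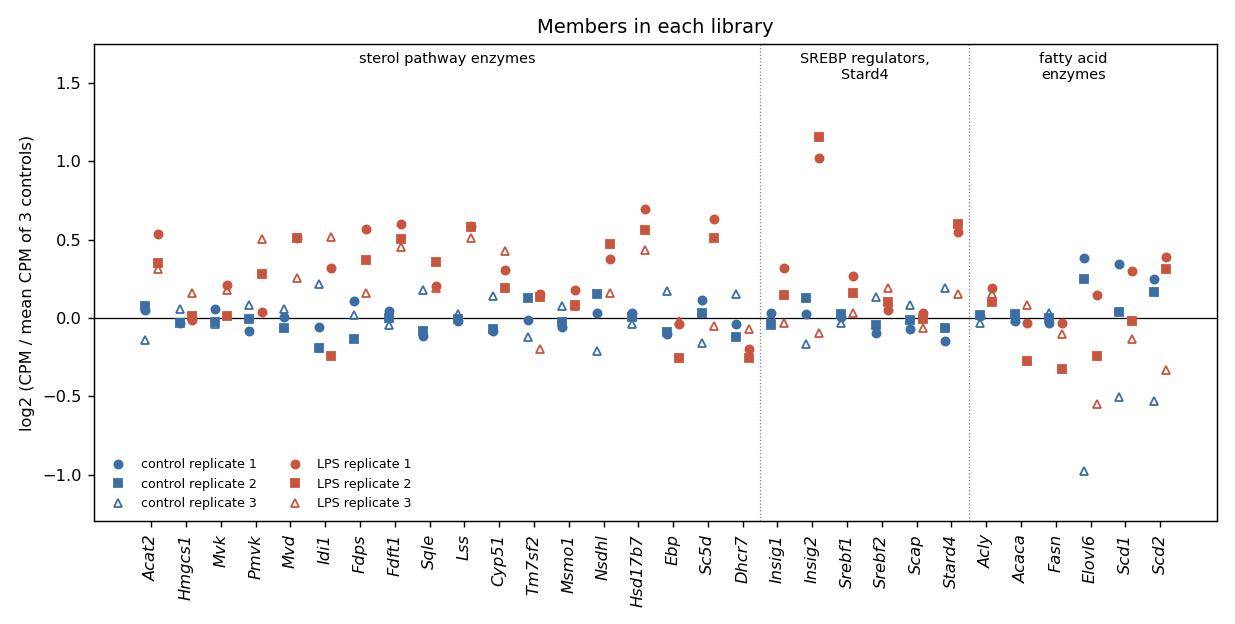
Each gene in each of the 6 libraries as log2 of its CPM over the mean of the 3 controls; blue is control, red is LPS, and open triangles are the libraries numbered 3. LPS libraries of Lss, Fdft1 and Hsd17b7 lie clear of the controls, whereas LPS replicate 3 of Insig2, Stard4 and Sc5d lies among the controls.

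Lss, lanosterol synthase, closes the sterol ring system from epoxidized squalene. Its level was 78.7, 79.6 and 81.1 CPM in control and 120.0, 119.6 and 113.9 CPM in LPS replicates 1, 2 and 3. The groups were far apart, and LPS replicate 3 was the lowest of the LPS libraries. The log2 fold change was 0.56 ± 0.06 (SE; adjusted p = 0.00443), and Lss was the only 1 of the 30 genes to keep its call with each library left out in turn (adjusted p up to 0.0443). Exons of Lss overlap 381 bases of 4930483K19Rik on the other strand, which had at most 1 count in any library.

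Fdft1, squalene synthase, which commits farnesyl diphosphate to sterols, stood at 91.5, 88.9 and 86.3 CPM in control and at 134.7, 125.8 and 121.5 CPM in LPS. The groups did not overlap, and the 3 same-numbered pairs differed by similar amounts, 0.56, 0.50 and 0.49 on the log2 scale. The fitted log2 fold change was 0.52 ± 0.07 (adjusted p = 0.00909). Without control replicate 2 the adjusted p was 0.0638, the only library whose removal ended the call. Exons of Fdft1 share 774 bases with Ctsb on the other strand, and the strand setting of the counting was not given in the sources used here. Ctsb was lower in LPS than in the same-numbered control in all 3 pairs (4484, 5556 and 10120 CPM in control, 3261, 3358 and 7232 CPM in LPS), the opposite direction to Fdft1.

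Hsd17b7, the ketosterol reductase of the demethylation steps, had 77.1, 75.6 and 73.3 CPM in control and 122.2, 111.3 and 102.0 CPM in LPS. The lowest LPS library was well above the highest control library. Its log2 fold change was 0.57 ± 0.09 (adjusted p = 0.0123), the largest among the genes called. The call was lost without control replicate 1 (adjusted p = 0.0585), control replicate 2 (0.0743) or LPS replicate 2 (0.0592), although the log2 fold change then lay between 0.57 and 0.60. The window of Hsd17b7 printed above is the only 1 of the 5 that also holds CACGTG.

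Mvd, which decarboxylates mevalonate diphosphate into the first isoprenoid unit, was at 36.1, 34.4 and 37.4 CPM in control and at 51.2, 51.2 and 42.9 CPM in LPS. LPS replicate 3 was closest to the controls. The log2 fold change was 0.43 ± 0.10 (adjusted p = 0.0372), and leaving out any library other than LPS replicate 3 ended the call (adjusted p between 0.0563 and 0.153). Without LPS replicate 3 the adjusted p was 0.0100.

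Acat2, the thiolase that joins acetyl-CoA units at the start of the pathway, had 41.5, 42.2 and 36.3 CPM in control and 57.9, 51.0 and 49.7 CPM in LPS. The groups did not overlap. Its log2 fold change was 0.40 ± 0.10 (adjusted p = 0.0472), and here too leaving out any library other than LPS replicate 3 ended the call (adjusted p between 0.0765 and 0.137). This gene is uncertain in the counts, because 39.1% of the 50-base words in its transcripts also occur in other genes, most often Acat3. Acat3 itself was at 11, 7 and 7 counts in control and at 99, 82 and 46 counts in LPS.

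The other 13 sterol enzymes did not pass the test with all 6 libraries, and 11 of their 13 log2 fold changes were above 0. Cyp51, lanosterol demethylase, had 153.7, 155.3 and 179.7 CPM in control and 201.7, 185.7 and 218.8 CPM in LPS, without overlap. Its log2 fold change was 0.31 ± 0.10 (adjusted p = 0.0959), and it passed with the replicate number as a block (adjusted p = 0.0225) and by DESeq2. Nsdhl, the decarboxylating sterol dehydrogenase, had 58.2, 63.2 and 49.1 CPM in control and 73.7, 79.0 and 63.5 CPM in LPS, so that each pair differed by a similar amount although replicate 3 was lowest in both groups. Its log2 fold change was 0.34 ± 0.13 (adjusted p = 0.131), and 0.34 ± 0.05 with the replicate block (adjusted p = 0.0149). With the block, 7 of the 30 genes were called higher (23.3%) and 0 lower, the 5 above with Cyp51 and Nsdhl, beside 15.4% and 14.9% of all tested genes (30.3% in either direction).

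Sqle, whose product is the substrate of Lss, had 139.1, 142.7 and 170.8 CPM in control and 174.0, 193.1 and 172.0 CPM in LPS. Controls 1 and 2 were well below the LPS libraries, but control replicate 3 almost reached LPS replicate 3 (log2 fold change 0.25 ± 0.11, adjusted p = 0.169). Fdps, farnesyl diphosphate synthase, had 25.8, 21.8 and 24.3 CPM in control and 35.6, 31.0 and 26.8 CPM in LPS (log2 fold change 0.38 ± 0.13, adjusted p = 0.114). Fdps shares 1124 bases of exon on its own strand with Gm43738, which was not analysed here, and 26.2% of its 50-base words occur in other genes. Sc5d, the sterol desaturase, had 107.9, 102.0 and 89.4 CPM in control and 154.7, 142.4 and 96.2 CPM in LPS, where replicate 3 lay below controls 1 and 2 (log2 fold change 0.39 ± 0.19, adjusted p = 0.217).

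At the entry to the pathway, no gene other than Acat2 and Mvd passed. Hmgcs1, whose window holds the TCACNCCAC match, had 213.7, 213.5 and 226.9 CPM in control and 216.1, 220.1 and 243.7 CPM in LPS. The groups overlapped, and the 95% interval of its log2 fold change ran from -0.14 to 0.25. Mvk, mevalonate kinase, had a log2 fold change of 0.14 (95% interval -0.08 to 0.36), and Pmvk, the kinase after it, of 0.29 (-0.06 to 0.63). Idi1, the isopentenyl isomerase, varied most among the enzymes of this stretch, with 17.3, 15.7 and 20.95 CPM in control and 22.4, 15.2 and 25.8 CPM in LPS, and 17.7% of its 50-base words occur in other genes.

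Towards the end of the pathway, Tm7sf2 (log2 fold change 0.04, 95% interval -0.30 to 0.37) and the sterol oxidase Msmo1 (0.11, -0.07 to 0.30) overlapped between groups. Ebp, the sterol isomerase, had a log2 fold change of -0.10 (95% interval -0.39 to 0.19). Dhcr7, a reductase of the last steps to cholesterol, had 45.3, 42.7 and 51.6 CPM in control and 40.6, 39.0 and 44.4 CPM in LPS. It was lower in LPS in all 3 pairs, but its log2 fold change of -0.17 ± 0.10 did not pass (adjusted p = 0.307). With library size alone as scaling, Dhcr7 was called lower at a log2 fold change of -0.33.

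**Figure D3:**
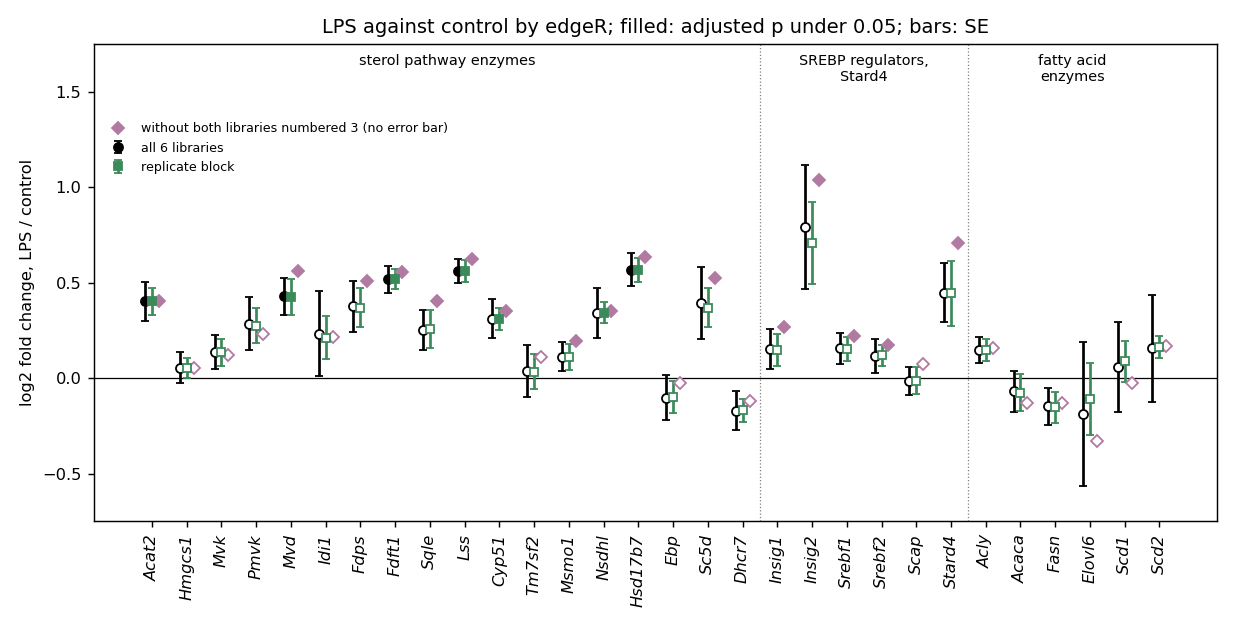
Fitted log2 fold change, LPS over control, of each gene with all 6 libraries (black circles), with the replicate number as a block (green squares) and without both libraries numbered 3 (purple diamonds, no error bar); bars are SE and filled symbols are called at an adjusted p under 0.05. With all 6 libraries only 5 sterol enzymes are filled; without the libraries numbered 3 Insig2 reaches 1.04 and Stard4 0.71.

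None of the 6 regulators and sterol carriers passed with all 6 libraries by edgeR, and neither DESeq2 nor limma-voom called any. At an unadjusted p under 0.05, 1 was higher (Stard4) and 0 lower. The largest log2 fold change of all 30 genes was that of Insig2, a retention factor of SCAP, with 48.1, 51.8 and 42.2 CPM in control and 96.1, 105.5 and 44.3 CPM in LPS. LPS replicates 1 and 2 lay far above the controls, whereas LPS replicate 3 lay among the controls. With all 6 libraries the log2 fold change was 0.79 ± 0.32 (adjusted p = 0.156). Without LPS replicate 3 it was 1.09 (adjusted p = 0.00324), and without both libraries numbered 3 it was 1.04 (adjusted p = 9.3e-05).

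Stard4, which carries cholesterol between membranes, followed the same pattern, with 65.0, 68.9 and 82.2 CPM in control and 105.5, 109.3 and 80.1 CPM in LPS. LPS replicate 3 was below control replicate 3. Its log2 fold change was 0.45 ± 0.15 with all libraries (adjusted p = 0.105) and 0.71 without both libraries numbered 3 (adjusted p = 0.000202). Insig1, the other retention factor and itself a target of the SREBPs, had 143.0, 135.3 and 141.0 CPM in control and 174.6, 154.9 and 137.0 CPM in LPS (log2 fold change 0.15 ± 0.10, adjusted p = 0.359).

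Neither SREBP gene passed. Srebf1 had 107.9, 109.5 and 105.0 CPM in control and 129.2, 120.0 and 109.9 CPM in LPS, narrowly without overlap (log2 fold change 0.16 ± 0.08, adjusted p = 0.247). Srebf2 had 196.1, 203.6 and 230.2 CPM in control and 217.9, 225.3 and 239.9 CPM in LPS, and the groups overlapped through control replicate 3 (0.12 ± 0.09, adjusted p = 0.426). Scap, the escort, had a log2 fold change of -0.01 with a 95% interval from -0.19 to 0.16, which was above 0 with relative log expression factors and in DESeq2. Activation of SREBPs occurs by proteolysis, which counts of mRNA do not measure.

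None of the 6 fatty acid enzymes passed with all 6 libraries by edgeR. At an unadjusted p under 0.05, 0 were higher and 0 lower, limma-voom called 0 and DESeq2 called 1 (Acly). Acly had 348.4, 349.4 and 337.9 CPM in control and 394.1, 370.9 and 383.2 CPM in LPS. The groups did not overlap, but the difference was small, with a log2 fold change of 0.15 ± 0.07 (adjusted p = 0.204) that was -0.01 with library size alone as scaling. Fasn, the fatty acid synthase, had 244.7, 249.9 and 255.6 CPM in control and 244.5, 199.8 and 233.4 CPM in LPS. All LPS libraries were below all controls, although LPS replicate 1 was level with control replicate 1 (log2 fold change -0.15 ± 0.10, adjusted p = 0.349). Acaca, which makes malonyl-CoA for Fasn, had a log2 fold change of -0.07 (95% interval -0.33 to 0.19), and 30.4% of its 50-base words occur in other genes, most often Gm5182.

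The desaturases and the elongase varied with the replicate number more than with LPS. Scd2 had 1301, 1226 and 757.3 CPM in control and 1432, 1359 and 870.0 CPM in LPS. Replicate 3 was at 0.599 times the mean of replicates 1 and 2 in control and at 0.623 times in LPS, whereas LPS exceeded control in every pair by 0.14 to 0.20 on the log2 scale. Scd1 had 347.5, 281.0 and 192.9 CPM in control and 337.3, 269.8 and 249.0 CPM in LPS, so that pairs 1 and 2 differed by -0.04 and -0.06 and pair 3 by 0.37 on the log2 scale. Elovl6, which extends palmitate, had 105.9, 96.6 and 41.2 CPM in control and 89.8, 68.7 and 55.4 CPM in LPS. It was lower in LPS in pairs 1 and 2 and higher in pair 3. The 95% intervals with all libraries were wide, from -0.53 to 0.84 for Scd2, -0.52 to 0.64 for Scd1 and -1.12 to 0.74 for Elovl6.

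Across the 30 genes, the library numbered 3 was the lowest of both groups for 11 genes and the highest of both groups for 7. The share over all tested genes was not counted, so these counts are not a trait of the 30 genes. Without both libraries numbered 3, 16 genes were called higher (53.3%) and 0 lower, beside 22.6% and 20.4% of 15466 tested genes. These 16 comprised 11 of 18 sterol enzymes, adding Fdps, Sqle, Cyp51, Msmo1, Nsdhl and Sc5d to the 5 above, and 5 of 6 regulators, Insig1, Insig2, Srebf1, Srebf2 and Stard4. No fatty acid enzyme was called, and at an unadjusted p under 0.05 there were 2 higher and 1 lower. With the replicate block added to these 4 libraries, an alternative chosen after seeing the data, 18 genes were called higher (60.0%, beside 25.8%) and 1 lower (beside 24.1%), with Scd2 and Acly added and Elovl6 lower. These fits rest on 2 libraries a group.

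**Figure D4:**
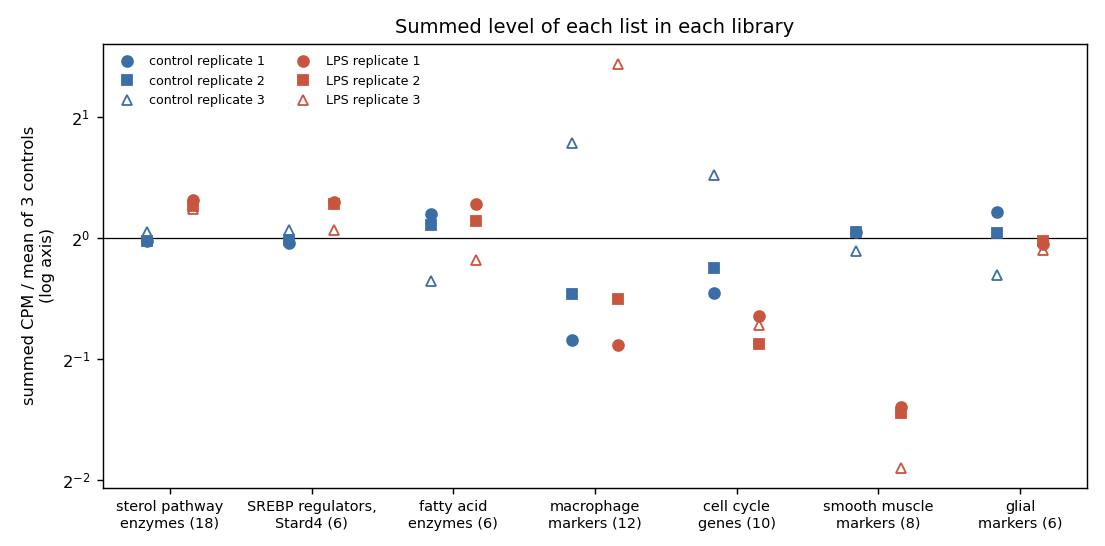
Summed CPM of each gene group and of 4 marker lists in each library, over the mean of the 3 controls, on a log axis; blue is control, red is LPS, open triangles are the libraries numbered 3. The sterol enzymes separate by group, from 1361 to 1429 CPM in control and from 1629 to 1724 CPM in LPS, whereas the macrophage markers separate by replicate number.

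Summed over the 18 sterol enzymes, the level was 1364, 1361 and 1429 CPM in control and 1724, 1665 and 1629 CPM in LPS. The groups did not overlap in this sum. The 6 fatty acid enzymes summed to 2390, 2247 and 1627 CPM in control and to 2540, 2303 and 1836 CPM in LPS, where Scd2 was the largest term and the spread followed the replicate number. Cell cycle genes summed to 515.7, 594.0 and 1013 CPM in control and to 453.6, 385.9 and 429.1 CPM in LPS, with all 10 highest in control replicate 3. All 10 had log2 fold changes below 0, and 0 were called with edgeR on the 6 libraries (6 lower at an unadjusted p under 0.05; 2 called lower by DESeq2 and 1 by limma-voom). Mcm2, Mcm6 and Pcna were called lower with the replicate block, and these and Ccnb1 and Cdk1 without both libraries numbered 3. All 7 tested smooth muscle markers were called lower in LPS, with Acta2 as the most abundant, also with the block and without both libraries numbered 3. The part of the glial, fibroblast, cell cycle, smooth muscle and macrophage markers in the results was not tested. Of the 12 macrophage markers, Adgre1 was called higher and 0 lower (1 lower at an unadjusted p under 0.05, 0 called lower by DESeq2 or limma-voom), against 3 higher and 4 lower with the block and 2 higher and 6 lower without both libraries numbered 3. These markers did not move together between control and LPS, as in replicate 1 Adgre1 was at 159.0 and 952.4 CPM, Mrc1 at 197.0 and 9.29 CPM and Cd68 at 237.7 and 134.0 CPM.

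Finally, other genes of the same pathways were examined from 4 lists of 66 genes. Of these, 62 were tested, 10 rose (16.1%) and 4 fell, beside 9.09% and 6.71% of all tested genes, and with the replicate block 17 rose (27.4%) and 9 fell (14.5%), beside 15.4% and 14.9%. Without both libraries numbered 3, 24 rose (38.7%) and 10 fell (16.1%), beside 22.6% and 20.4%. Among 12 tested isoprenoid and sterol enzymes, 1 rose and 1 fell (also with the block; 2 and 1 without both libraries numbered 3, with Lbr added). Nus1, a subunit of the enzyme that makes dolichol, had a log2 fold change of 0.46 ± 0.10 (adjusted p = 0.0334), and Acat1, the mitochondrial thiolase, of -0.69 ± 0.11 (adjusted p = 0.0141).

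Among 12 genes of SREBP processing and turnover, 2 rose and 1 fell (3 and 1 with the block; 5 and 2 without both libraries numbered 3). Rnf145, a sterol-responsive ubiquitin ligase, had 92.3, 86.8 and 90.3 CPM in control and 124.3, 117.5 and 129.1 CPM in LPS (log2 fold change 0.46 ± 0.07, adjusted p = 0.0122). Syvn1, a ubiquitin ligase of endoplasmic reticulum quality control, had a log2 fold change of 0.41 ± 0.06 (adjusted p = 0.0127). Fbxw7, which marks nuclear SREBPs for degradation, had a log2 fold change of -0.45 ± 0.09 (adjusted p = 0.0304). The proteases that release the SREBPs had log2 fold changes of -0.15 ± 0.11 for Mbtps1 and -0.24 ± 0.14 for Mbtps2 and did not pass (adjusted p = 0.405 and 0.313).

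Among 24 tested genes of fatty acid activation, elongation and desaturation, 4 rose and 1 fell, and 3 of the 4 were acyl-CoA synthetases. With the block 9 rose and 4 fell, where Slc25a1, Me1, Acss2, Fads2 and Acsl6 were added as higher and Acacb, Mid1ip1 and Lpin1 as lower, and without both libraries numbered 3 the counts were 11 and 4. Acsl1, which activates long-chain fatty acids, had 25.1, 27.9 and 40.1 CPM in control and 304.1, 359.2 and 298.0 CPM in LPS (log2 fold change 3.37 ± 0.21, adjusted p = 0.000695). Acsl4 had a log2 fold change of 1.12 ± 0.12 (adjusted p = 0.00468) and Acsl5 of 1.13 ± 0.28 (adjusted p = 0.0450), with LPS replicate 3 highest for Acsl5 at 373.2 CPM. Hsd17b12, the reductase of the elongation cycle, rose by 0.41 ± 0.08 (adjusted p = 0.0255), and the elongase Elovl5 fell by 0.52 ± 0.08 on the log2 scale (adjusted p = 0.0141). The desaturase Fads1 had a log2 fold change of 0.09 ± 0.10 (adjusted p = 0.588). Fads2, with 0.21 ± 0.20 (adjusted p = 0.516), and the acetyl-CoA synthetase Acss2, with 0.74 ± 0.37 (adjusted p = 0.237), passed with the replicate block (adjusted p = 0.0469 and 0.00529).

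Among 14 genes of oxysterol and sterol handling, 3 rose and 1 fell (4 and 3 with the block; 6 and 3 without both libraries numbered 3). Ch25h, which makes an oxysterol that binds the INSIG proteins, had 11.2, 11.2 and 26.7 CPM in control and 166.8, 180.4 and 128.1 CPM in LPS. The groups were far apart, with a log2 fold change of 3.27 ± 0.41 (adjusted p = 0.00688). Cyp7b1, which degrades such oxysterols, had 13.9, 10.4 and 15.95 CPM in control and 59.9, 58.2 and 40.4 CPM in LPS (1.98 ± 0.23, adjusted p = 0.00506). Both were highest in LPS replicates 1 and 2, as Insig2 and Stard4 were.

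The lysosomal cholesterol carrier Npc2 had a log2 fold change of 0.82 ± 0.13 (adjusted p = 0.0125), whereas the lysosomal lipase Lipa, with 467.1, 565.4 and 823.0 CPM in control and 247.4, 251.7 and 309.1 CPM in LPS, had -1.20 ± 0.23 (adjusted p = 0.0235). Nr1h3, the oxysterol receptor gene of macrophages and other cells, had 8.86, 7.44 and 5.83 CPM in control and 17.4, 14.3 and 56.5 CPM in LPS, with LPS replicate 3 far above the others (1.996 ± 0.57, adjusted p = 0.0694). Soat1, which esterifies cholesterol, had -0.16 ± 0.22 (adjusted p = 0.672). Of the 14 called genes in these lists, Acsl1, Acsl4, Ch25h and Cyp7b1 kept their calls with each library left out in turn (adjusted p up to 0.0421), and the other 10 lost it without 1 or more of control replicates 1 and 2 and LPS replicates 1 and 2 (adjusted p up to 0.162), Acsl5 also without control replicate 3.

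**Figure D5:**
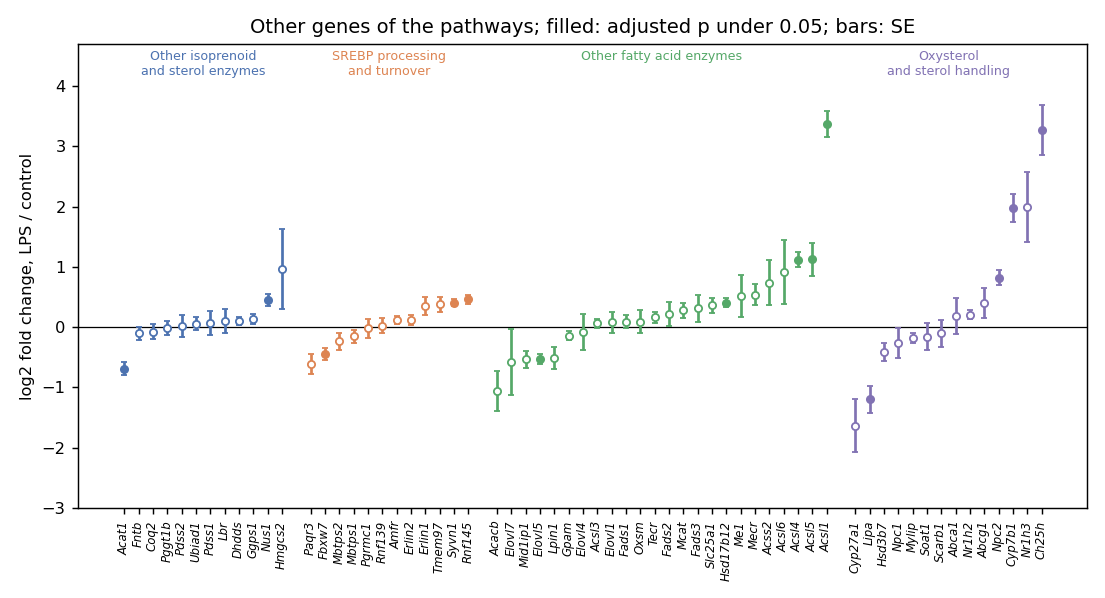
Fitted log2 fold change, LPS over control, of the 62 tested genes of the 4 lists, coloured by list and ordered within it; bars are SE and filled symbols are called at an adjusted p under 0.05. Acsl1 at 3.37 and Ch25h at 3.27 exceed every one of the 30 synthesis genes, whose largest value is 0.79.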

How the data were processed

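Poly(A) RNA of 6 EGC libraries was sequenced after stranded library preparation. Raw counts per gene were deposited for each library. Per the labels, the authors trimmed reads with cutadapt 1.15, removed contaminants with Bowtie2 2.3.3.1, aligned to GRCm38 with STAR 2.5.2b, handled alignments with SAMtools 1.5 and listed featureCounts 1.5.3. Its strand and multimapping settings were not given in the sources used here. A further table of the whole series was not used.

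Genes were filtered with filterByExpr (minimum count 10, minimum total 15), leaving 15226. LPS and control were compared with the two-sided edgeR quasi-likelihood test (edgeR 4.0.16, R 4.3.3), TMM factors from 0.917 to 1.08 and Benjamini-Hochberg adjustment over all tested genes. CPM use TMM library sizes. SE is the absolute log2 fold change over the square root of F, and 95% intervals use the t quantile at the degrees of freedom of the fit. A library resolves 3 counts at 0.124 to 0.167 CPM, counting error only. Coordinates and exon lengths are from GENCODE M21 (GRCm38), which holds 98.9% of the identifiers. The test was tested on simulated data.

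Alternatives were other scaling factors, filters, DESeq2 1.42.0, limma-voom (limma 3.58.1), a replicate block, each library left out, and both libraries numbered 3 left out. Deviations from group means correlated between same-numbered control and LPS libraries (r = 0.581, 0.391 and 0.635 across genes, all over 0.1). They also correlated between control replicate 1 and LPS replicate 2 (r = 0.466) and between control replicate 2 and LPS replicate 1 (r = 0.397). The numbers were taken as pairing the libraries, without a basis in the labels. These correlations set number 3 apart from 1 and 2 but do not tell pair 1 from pair 2. The block raised the calls over all genes from 1384 to 2343 higher and from 1022 to 2273 lower.

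The 30 genes, the lists and the alternatives were chosen with earlier results of these data known. Named genes are all 30, the called genes of the other lists (at most 6 a list), 8 further genes fixed by name, and the most abundant marker of each list. Other markers named and values of neighbouring or similar genes were chosen after values or overlaps were seen. Some genes of these pathways and marker lists are not reported here.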

Additional observations from a re-analysis of the deposited data

How the results depend on the processing

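With 2 or 3 libraries a group, adjusted p-values near 0.05 turned on single libraries. Calls among the 30 genes (5 higher, 0 lower) numbered 3 higher with upper-quartile factors, library size alone or no count filter, and 1 was lower with library size alone. Leaving out single libraries gave 1 to 9. Without both libraries numbered 3 the count was 16, and 18 higher with 1 lower when the replicate block was added after seeing the data. The median log2 fold change of the 30 genes was 0.055 (upper-quartile factors) and 0.0015 (library size alone). Over all genes, calls were 2079 higher and 1673 lower by DESeq2, 2343 and 2273 with the replicate block, 3498 and 3159 without both libraries numbered 3, and 3987 and 3722 with both changes. Upper-quartile factors gave 1050 higher and 1589 lower, library size alone 986 higher and 2054 lower. Leaving out single libraries gave 379 to 1964 higher and 112 to 1426 lower. The other pathway genes (10 higher, 4 lower) gave 17 and 9 with the block, 24 and 10 without both libraries numbered 3, 27 and 10 with both changes, 7 lower with upper-quartile factors, 8 with library size alone or DESeq2, and 4 to 15 higher and 0 to 6 lower with single libraries left out. In the fit to all 6 libraries, the replicate block changed the calls of Cyp51 and Nsdhl and of no other of the 30 genes.

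Signs turned for 12 of the 30 genes, none of them called in the fit to all 6 libraries without a block. With library size alone, log2 fold changes were -0.10 for Hmgcs1, -0.020 for Mvk, -0.11 for Tm7sf2, -0.041 for Msmo1, -0.038 for Srebf2, -0.10 for Scd1 and -0.0074 for Acly. With upper-quartile factors they were -0.050 for Hmgcs1, -0.062 for Tm7sf2 and -0.046 for Scd1. Scap was at 0.0013 with relative log expression factors and by DESeq2 and at 0.077 without both libraries numbered 3, with or without the block, where Scd1 was at -0.027. With single libraries left out, the ranges were -0.15 to 0.026 for Acaca, -0.15 to 0.0080 for Ebp, -0.49 to 0.060 for Elovl6, -0.0017 to 0.10 for Hmgcs1, -0.041 to 0.044 for Scap, -0.12 to 0.28 for Scd1, -0.034 to 0.35 for Scd2 and -0.021 to 0.14 for Tm7sf2. The fatty acid median was 0.012 with relative log expression factors or DESeq2, 0.0065 with limma-voom, 0.0063 with the block and between -0.086 and 0.11 with single libraries left out. The median level at rest was 17.4 CPM per kb, and 78.0 CPM without division by length. CCAAT was found in 11 of 24 genes (45.8%) on the given strand alone, against 24.6% of tested genes. The cause of these shifts was not tested. Of the log2 fold changes of the 30 genes under 16 alternatives, 397 kept direction and side of the threshold, 34 gained a call, 21 lost 1 and 28 turned sign.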
